A study of Homo sapiens with 4 samples.

Results

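Probe sets that carry no gene symbol made up 11721 of the 54613 non-control probe sets on the array (21.5%). They were taken as the rows of the deposited table that have no symbol in the platform annotation used here, with the Affymetrix control probe sets left out. Expression levels played no part in the choice. That table may not hold every row of the platform's annotation, so no symbol means none in it, and some members may have one elsewhere. The cells were HepG2, a human hepatocyte-derived cancer line that still carries out many hepatocyte functions, grown with serum and then deprived of it (for 24 h in the series' design text, overnight in the protocols). The series follows gene expression over time after addition of APRIL (200 ng/ml), a soluble cytokine of the TNF family. There was 1 untreated array (0 h) and 1 array each for 2, 6 and 12 h of APRIL, on the U133 Plus 2.0 platform with total RNA, and each array is one sample of one cell line. In such a bulk extract, fewer cells of a kind and less RNA per cell cannot be told apart. No untreated array from a later time was analysed here, so the treatment and the hours in culture cannot be told apart, and with 1 array a time no difference below has a replicate check or a p-value.

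A probe set is a group of short oligonucleotides designed against the 3′ end of one transcript sequence. Many on this array were designed from expressed sequence tags, short reads of cDNA clones collected before the genome annotation was settled. Such tags can come from unspliced or intronic RNA, from long noncoding transcripts, from extended 3′ ends of known messages, or from clones that match nothing annotated later, and these can be left without a symbol. The annotation used here pairs no sequence accession with any of the 11721 members, so no sequence is shown for them and each is called by its identifier. The ending of the identifier says how specific the design was. Those ending in _at were designed to match 1 transcript, those in _a_at several transcripts of 1 gene, and those in _s_at and _x_at may match transcripts of different genes.

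Values are log2, and every probe set is centred on the median of its 4 arrays, so a difference between arrays can be read but no level. It follows that the label HepG2 could not be checked through the level of hepatocyte markers. As differences, the 9 hepatocyte markers that could be read (ALB, APOA1, APOB, TTR, SERPINA1, FGB, TF, AFP and FOXA2) had medians of 0.021, 0.045 and -0.017 at 2, 6 and 12 h against 0 h, with 1 marker past 2-fold lower at 6 h and 1 at 12 h. The 5 readable markers of other cells (PTPRC, PECAM1, VWF, COL1A1 and COL3A1) stayed between -0.37 and 0.12 at these times. The 18 probe sets for bacterial RNAs that are added at hybridization had median differences to 0 h of 0.012, 0.055 and -0.35 on the 2, 6 and 12 h arrays. Their part in the 12 h results was not tested. The 2-fold counts of both classes and the median at 12 h are given with both centrings, and the other 12 h values with the deposited centring alone.

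The main feature of the unnamed probe sets was a heavy lower tail at 6 h. Of 11721, 376 lay at or past 2-fold below the 0 h array (a log2 difference of -1 or less), which is 3.21%, and 15 lay 2-fold or more above it (0.128%). Over all 54613 non-control probe sets, members included, these shares were 1.45% lower and 0.22% higher. Among the 41091 probe sets with exactly 1 symbol they were 0.937% and 0.246%. The unnamed share was thus 3.42 times the 1-symbol share on the lower side and 0.521 times on the higher side. Against the mean of the 0, 2 and 12 h arrays, 144 members (1.23%) were past 2-fold lower at 6 h. With 1 symbol this share was 0.428%. Unnamed probe sets supplied 47.6% of all 790 probe sets past 2-fold lower at 6 h. Of the unnamed differences past 2-fold, 96.2% were lower, against 79.2% of those with 1 symbol.

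The centre of the distribution moved much less than its tail. At 6 h the median difference was -0.016 for unnamed and 0.039 for 1-symbol probe sets, and the robust SD (the median absolute deviation scaled to an SD) was 0.28 and 0.24. The lowest 1% of unnamed probe sets reached -1.35 and below, and the lowest 5% reached -0.83, whereas with 1 symbol these points were -0.98 and -0.51. On the higher side the unnamed probe sets were the narrower class, with the top 5% starting at 0.40 against 0.46 and the top 1% at 0.62 against 0.71. The excess was on the lower side only, and was already present at the lower quartile (-0.23 unnamed, -0.13 with 1 symbol).

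**Figure D1:**
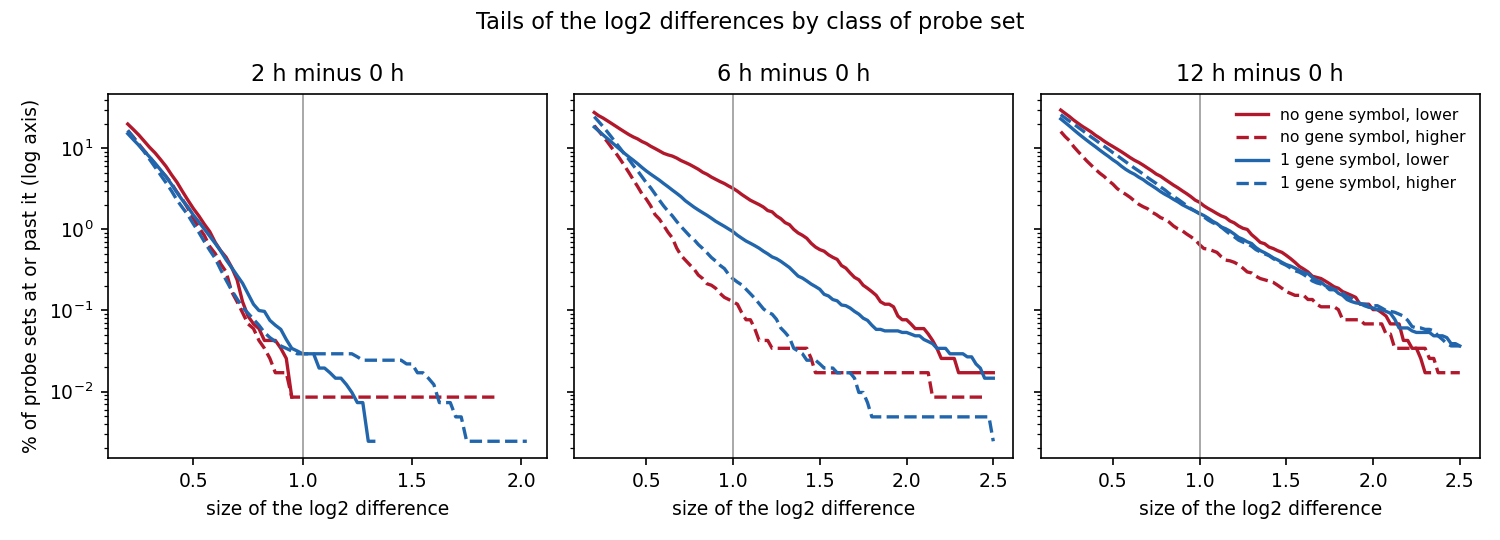
Share of probe sets (y axis, percent, log scale) at or past a given size of log2 difference to the 0 h array (x axis), for 2, 6 and 12 h. Red lines are the 11721 probe sets without a symbol and blue lines the 41091 with 1 symbol, solid for lower and dashed for higher, and the grey line marks 2-fold. At 6 h the solid red line runs above the solid blue one (3.21% against 0.937% at 2-fold), and at 12 h the dashed red line runs below the dashed blue one (0.648% against 1.56%).

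The same contrast between classes held at other thresholds for the lower side at 6 h. At 1.5-fold, 1058 unnamed probe sets were lower (9.03%) against 3.91% with 1 symbol and 5.05% overall. At 3-fold there were 51 (0.435%) against 0.134% and 0.209%. On the higher side at 6 h, 143 passed 1.5-fold (1.22%, with 1.98% overall) and 2 passed 3-fold (0.0171%, with 0.0183% overall).

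Among the members, 230748_at was lowest at 6 h against 0 h. Its log2 values were 0.75 and 1.43 on the early arrays (0 and 2 h) and -1.99 and -0.75 on the late ones (6 and 12 h), a difference of -2.74 between 6 h and 0 h. It had the widest range over the 4 arrays of any unnamed probe set (3.41). Its highest and lowest arrays were 2 h and 6 h, and at 12 h it lay between its early and its 6 h values.

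Next came 244112_x_at, whose values were 0.87, 0.61, -1.69 and -0.61 at 0, 2, 6 and 12 h, a 6 h difference of -2.57. The ending of this one allows matches to several genes. The third, 222180_at, was at 0.91, 1.18, -1.39 and -0.91, a difference of -2.29. In all 3, both early arrays were above 0 and both late arrays below it, with 6 h the lowest.

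A second form had no return at 12 h. For 240263_at the values were 1.14, 1.03, -1.05 and -1.03, so the differences to 0 h were -2.19 at 6 h and -2.17 at 12 h. For 240910_at they were 0.96, 1.02, -0.996 and -0.96, with differences of -1.95 and -1.91. Here the pairs of early and of late arrays were nearly level, and the step lay between 2 h and 6 h.

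The other 5 of the 10 lowest at 6 h differed in how far they came back by 12 h. The 6 h difference was -2.15 for 240690_at, -2.13 for 238970_at, -2.11 for 1557504_at, -2.05 for 1557164_a_at and -2.004 for 236375_at. Their 12 h differences were -1.76, -1.89, -1.26, -1.097 and -1.72 in the same order. Of the 10, 8 end in _at, 1 in _x_at and 1 in _a_at, and all 10 were above their own median at 0 h and 2 h and below it at 6 h and 12 h. Centring on the median puts as many arrays above 0 as below it, and the 10 were chosen for 6 h below 0 h. Part of this shape was therefore set beforehand.

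**Figure D2:**
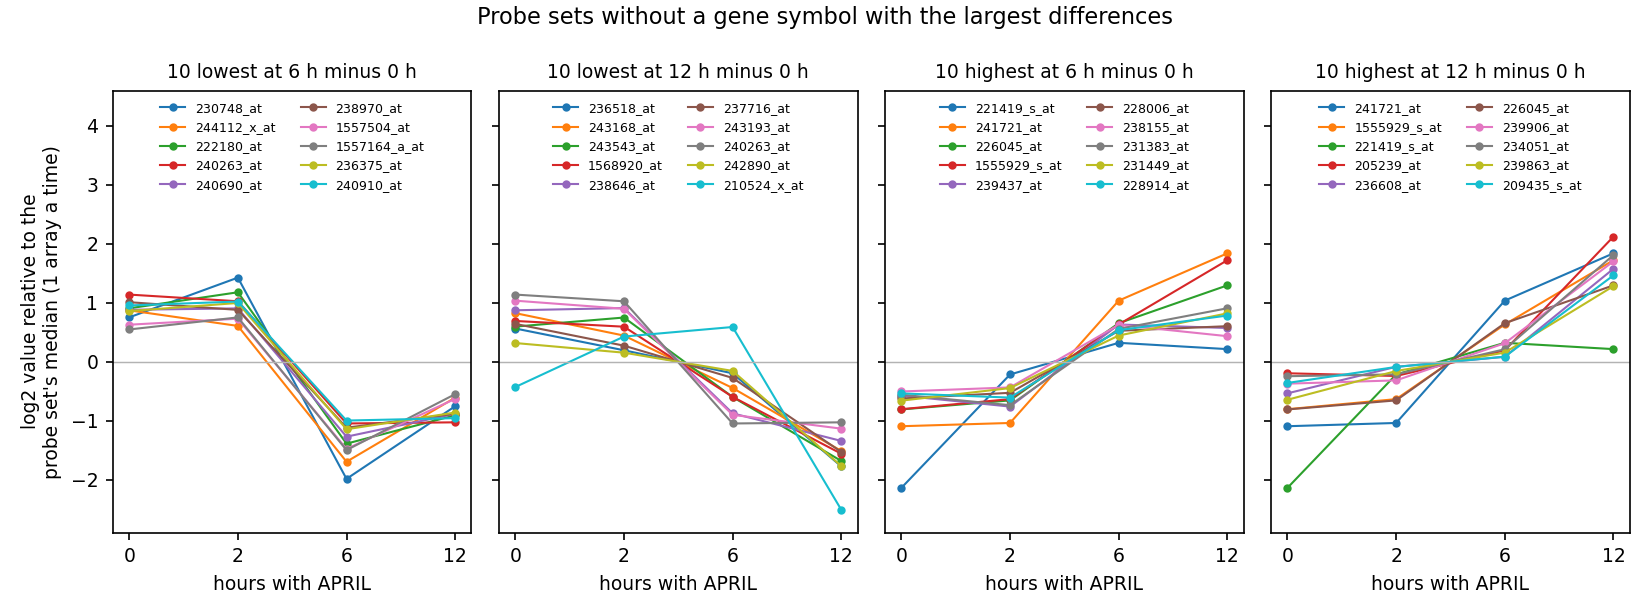
Log2 value relative to the probe set's median (y axis) on the arrays at 0, 2, 6 and 12 h (x axis, even spacing), for the 10 lowest and the 10 highest unnamed probe sets at 6 h and at 12 h against 0 h; each line is 1 probe set and each point 1 array. The 10 lowest at 6 h are all above 0 at 0 and 2 h and below 0 at 6 and 12 h, and 210524_x_at and 221419_s_at leave the common shapes of their panels. The median centring and the choice of members set part of these shapes.

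Over all 376 members past 2-fold lower at 6 h the median value on the 0, 2, 6 and 12 h arrays was 0.52, 0.44, -0.76 and -0.39. At 2 h they showed little difference to 0 h, with a median of -0.036 and a range from -0.93 to 0.67. These arrays enter the choice of the 376, so the profile is a description of what was chosen and nothing more. The comparisons of 6 h and of 12 h with 0 h also share the 0 h array.

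The comparison of 6 h with 2 h and that of 12 h with 0 h have no array in common. Lower by 2-fold or more at 6 h than at 2 h were 391 unnamed probe sets (3.34%, against 1.02% with 1 symbol and 1.54% overall), and 19 were higher (0.162%, against 0.285% and 0.255%). Of the 391, 381 (97.4%) were below 0 in 12 h over 0 h, where 57.8% of all unnamed probe sets were below 0. Their median there was -0.82, against -0.056 for the whole class. In that second comparison 134 of them were past 2-fold lower, which is 34.3% of the 391 and 53% of the 253 unnamed probe sets lower at 12 h.

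Of the probe sets lower at 6 h than at 2 h, a similar share in both classes was past 2-fold lower in 12 h over 0 h. The base there was 2.16% of all unnamed and 1.57% of all 1-symbol probe sets. The share of the 12 h lower probe sets so covered, and r, were smaller with 1 symbol. Of 420 with 1 symbol lower at 6 h than at 2 h, 366 (87.1%) were below 0 in 12 h over 0 h, where 47.8% of the whole class were. Their median there was -0.73. Past 2-fold lower were 147, which is 35% of the 420 and 22.8% of the 646 lower at 12 h. Across probe sets, Pearson's r between both comparisons was 0.50 over 11721 unnamed and 0.28 over 41091 with 1 symbol. Probe sets on the same arrays are not independent, and all arrays were normalized, so r is a description of these 4 arrays. The other pair without a common array is 12 h over 2 h and 6 h over 0 h, where the likeness was on the other share. Of the 251 unnamed and 555 1-symbol probe sets lower in the first, 55.4% and 25.2% were past 2-fold lower in the second. The base there was 3.21% and 0.937%. Of those lower in the second, 37% and 36.4% were so covered, and r was 0.55 and 0.38.

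**Figure D3:**
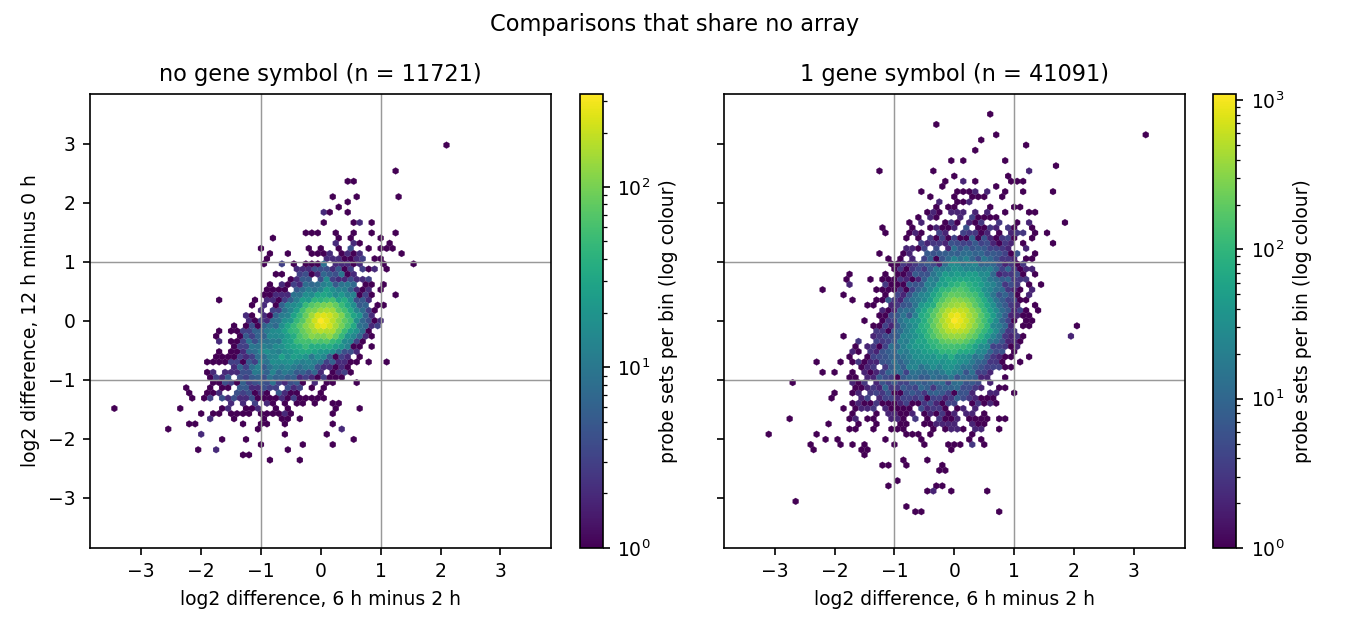
Log2 difference of 6 h to 2 h (x axis) against that of 12 h to 0 h (y axis), for unnamed (left) and 1-symbol probe sets (right); colour is the number of probe sets per bin on a log scale and the grey lines mark 2-fold. The unnamed cloud stretches to the lower left, where 134 probe sets are past 2-fold lower in both comparisons, and few points lie in its upper right, where 9 are past 2-fold higher in both.

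At 12 h against 0 h the unnamed class was also tilted to the lower side. There were 253 past 2-fold lower (2.16%) and 76 higher (0.648%), against 1.57% and 1.56% with 1 symbol and 1.7% and 1.35% overall. Lower differences were 76.9% of the unnamed and 50.2% of the 1-symbol calls. The median was -0.056 for unnamed and 0.011 for 1-symbol probe sets, and the robust SD of unnamed probe sets (0.26) was the smaller of both (0.29 with 1 symbol), the reverse of the order at 6 h.

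The balance of higher and lower at 12 h depended on how the arrays were centred. With each array set to its bacterial spike-in RNAs, 242 unnamed probe sets were higher (2.06%) and 81 lower (0.691%), so 25.1% of the unnamed and 9.34% of the 1-symbol calls were lower, and the unnamed median was at 0.30. Under both centrings the unnamed class had the smaller share on the higher side (5.29% with 1 symbol under the spike-in centring) and the larger one on the lower side (0.545% with 1 symbol). Against the mean of the 0, 2 and 6 h arrays, 75 unnamed probe sets (0.64%) were lower at 12 h. With 1 symbol this share was 0.9%, so the order of the classes on the lower side turned. That reference holds the 6 h array with its lower tail. The cause was not tested.

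At 1.5-fold, 939 unnamed probe sets were lower at 12 h (8.01%, with 5.33% for 1 symbol and 5.91% overall) and 307 higher (2.62%, with 6.54% and 5.7%). At 3-fold, 40 were lower (0.341%, with 0.299% and 0.308%) and 18 higher (0.154%, with 0.294% and 0.258%). The excess on the lower side thus shrank with the threshold, from 1.5 times the 1-symbol share at 1.5-fold to 1.14 times at 3-fold, and the deficit on the higher side was present at each.

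The 3 lowest unnamed probe sets at 12 h fell from each array to the next after 2 h. In time order the values of 236518_at were 0.56, 0.20, -0.20 and -1.77, a difference of -2.34 to 0 h. Those of 243168_at were 0.83, 0.44, -0.44 and -1.51, also -2.34, and those of 243543_at were 0.60, 0.75, -0.60 and -1.68, a difference of -2.28. For these the 12 h array stood below all others, and the difference of 12 h to 6 h was -1.58, -1.07 and -1.08.

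Further members of the 10 were 1568920_at at -2.25, 238646_at at -2.22, 237716_at and 243193_at both at -2.17, 240263_at (given above) and 242890_at at -2.09. The tenth, 210524_x_at, had a shape of its own among them. In time order it was at -0.43, 0.43, 0.59 and -2.51. It was therefore higher than 0 h by 0.86 at 2 h and by 1.02 at 6 h, and lower by 2.08 at 12 h.

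On the higher side, 241721_at led at 12 h. In time order its values were -1.09, -1.04, 1.04 and 1.84, differences of 2.13 at 6 h and 2.93 at 12 h. The second, 1555929_s_at, was at -0.80, -0.63, 0.63 and 1.72, differences of 1.44 and 2.53, and 226045_at was at -0.81, -0.65, 0.65 and 1.30, differences of 1.46 and 2.10. In these 3 both early arrays lay below both late ones, with 12 h the highest.

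Other members rose most between 6 h and 12 h, some after a smaller rise by 6 h. For 205239_at the 4 values in time order were -0.19, -0.24, 0.19 and 2.12, a difference of 2.32, and those of 234051_at were -0.24, -0.21, 0.21 and 1.81, a difference of 2.05. In the same way 236608_at (2.11), 239906_at (2.07), 239863_at (1.93) and 209435_s_at (1.82) had 6 h differences below 2-fold, from 0.45 to 0.80.

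The 15 members past 2-fold higher at 6 h were, after 221419_s_at and the 3 described, of modest size. They included 239437_at at 1.21, 228006_at at 1.15, 238155_at at 1.13, 231383_at at 1.12, 231449_at at 1.10 and 228914_at at 1.07. Of the 15, 14 were above 0 at 12 h against 0 h and 11 were past 2-fold higher there, the exception in sign being 210524_x_at. In the whole class 40.9% were above 0 there and 0.648% past 2-fold higher. Of the 101 probe sets with 1 symbol higher at 6 h, 86 were above 0 at 12 h and 51 past 2-fold higher. Both comparisons use the 0 h array, which entered the choice, so these counts describe what was chosen. Against the mean of the other 3 arrays, 4 of the class (0.0341%) were past 2-fold higher at 6 h, against 0.11% with 1 symbol.

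At 2 h the unnamed class held almost no large differences. There was 1 past 2-fold higher (0.00853%, with 0.0256% overall) and none lower (0%, with 0.0238% overall), against 12 in each direction with 1 symbol. At 1.5-fold there were 66 higher (0.563%, with 0.515% overall) and 95 lower (0.811%, with 0.771% overall). At 3-fold 1 was higher (0.00853%, with 0.0128% overall) and none lower (0% in both). These small counts hold for the 0 h array as reference. Against the mean of the 0, 6 and 12 h arrays, 58 members (0.495%) were past 2-fold higher at 2 h. With 1 symbol this share was 0.163%, so the order of the classes turned. That reference holds the 6 h and 12 h arrays, on which the class had its lower tails, so the 58 are not separate from those tails. Past 2-fold lower were 6 (0.0512%), against 0.0681% with 1 symbol. Against 0 h the medians were -0.0090 and 0.016, and the robust SD was 0.22 for unnamed and 0.19 for 1-symbol probe sets, so the unnamed class was the wider one in its bulk. It also reached slightly further at the lowest 1% (-0.57 against -0.55) and at the top 1% (0.53 against 0.52). Its smaller share past 2-fold rests on few calls.

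The single member past 2-fold at 2 h was 221419_s_at. Its 4 values in time order were -2.14, -0.22, 0.32 and 0.22, so the differences to 0 h were 1.92, 2.46 and 2.35. It was low on the 0 h array alone, and the other 3 arrays lay within 0.54 of each other. All 3 differences rest on that 1 array. The mean of the 3 remaining arrays, taken as reference, still holds the low 0 h array. Against it the 2 h difference was 0.32 and the 12 h difference 0.89, both below 2-fold, and the 6 h difference was 1.03. Without the 0 h array, the difference of 6 h to 2 h was 0.54 and that of 12 h to 6 h was -0.11.

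Below 2-fold at 2 h came 1557543_at at 0.94 and 210524_x_at at 0.86 on the higher side. On the lower side were 244475_at at -0.96, 243332_at at -0.93 and 1562586_at at -0.93. For 244475_at and 1562586_at the 2 h array stood alone, since both were within 0.26 of 0 h at 6 h and 12 h, whereas 243332_at stayed low at -1.44 and -1.13.

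Between 6 h and 12 h the unnamed class had fewer 2-fold differences than the 1-symbol class as a whole, though not than its long noncoding RNA probe sets (0.506% higher and 0.14% lower). There were 69 higher (0.589%, against 1.11% with 1 symbol and 1.01% overall) and 37 lower (0.316%, against 0.862% and 0.734%). The lowest was 210524_x_at, which was lower by 2-fold or more with a difference of -3.10. The robust SD of this step was 0.24 unnamed and 0.27 with 1 symbol. For the step from 2 h to 6 h it was 0.30 and 0.26, so the class with the wider bulk changed from the first of these steps to the next.

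Over the course, 546 unnamed probe sets (4.66%) were past 2-fold at 1 or more of the 3 times, against 3.74% with 1 symbol and 3.94% of all non-control probe sets. The other 11175 members (95.3%) passed at none. The array on which a probe set was highest also differed by class. The 12 h array was the highest for 19.7% of unnamed and 29.6% of 1-symbol probe sets, and the 0 h array for 27.1% and 19.3%. The 6 h array was the lowest for 26.1% of unnamed and 21.2% of 1-symbol probe sets. For the 12 h array these shares were 28% and 27.5%, for the 2 h array 25.5% and 24.5%, and for the 0 h array 20.4% and 26.8%. The median range over the arrays was 0.37 in both classes.

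Probe sets of named noncoding genes were set beside the unnamed ones, and at 6 h they did not show a lower tail of the same weight. Which kinds of transcript the members read is not known here, and the gene classes were not matched for identifier number. Through the gene identifier, RefSeq gave a gene class for 41037 of the 41091 1-symbol probe sets. Lower by 2-fold or more at 6 h were 1.15% of 3560 probe sets of long noncoding RNA genes, 1.05% of 761 for pseudogenes and 0.91% of 36598 for protein-coding genes, against 3.21% unnamed. Probe sets with several symbols stood between, with 1.61% of 1801.

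On the higher side, and at 12 h, unnamed and noncoding probe sets lay closer together than on the lower side at 6 h. None of the long noncoding or pseudogene probe sets was past 2-fold higher at 6 h, against 0.128% unnamed and 0.271% protein-coding. At 12 h the higher share was 0.506% for long noncoding RNA, 0.788% for pseudogenes, 0.648% unnamed and 1.67% for protein-coding genes. The lower share at 12 h was 1.04% for long noncoding RNA, 0.92% for pseudogenes and 1.63% for protein-coding genes, each below the 2.16% of the unnamed class. The robust SD at 12 h was 0.23 for long noncoding RNA and 0.30 for protein-coding genes, with the unnamed class at 0.26.

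**Figure D4:**
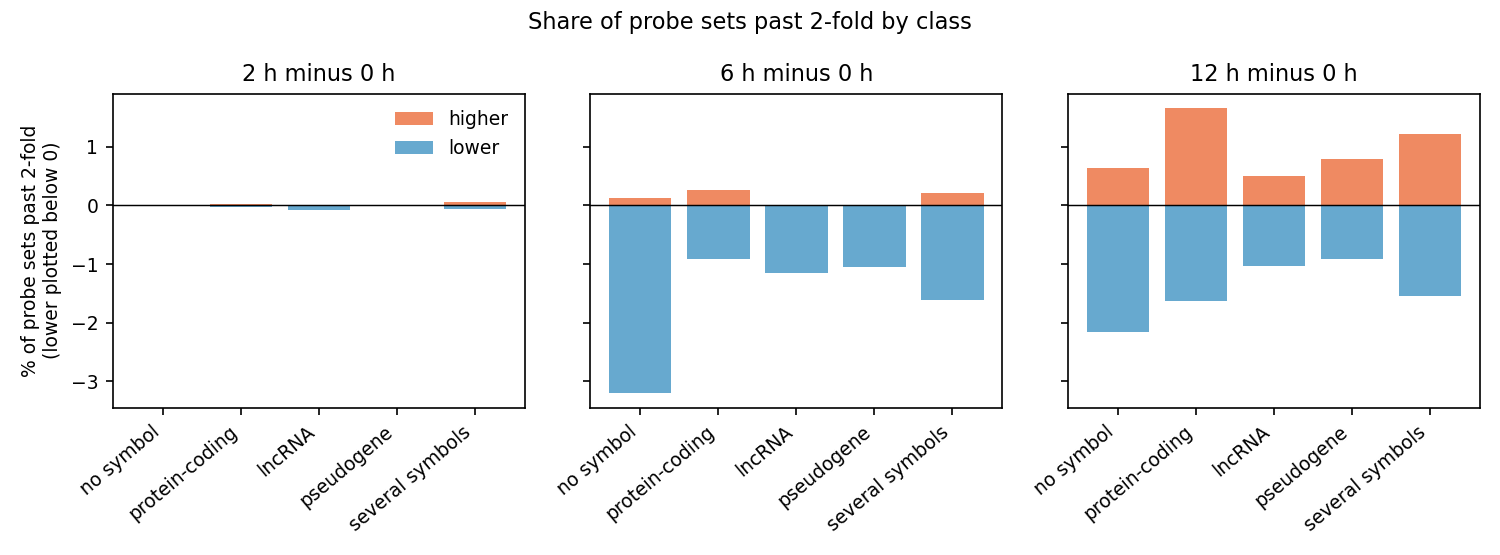
Percent of probe sets past 2-fold higher (orange, above 0) and lower (blue, below 0) against the 0 h array at 2, 6 and 12 h (y axis), for probe sets without a symbol, for those with 1 symbol by RefSeq gene class, and for those with several symbols (x axis). The unnamed bar reaches 3.21% lower at 6 h, where the other classes lie between 0.91% and 1.61%.

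The lower tail at 6 h was not spread evenly over the identifiers. Numbers on this platform follow the design sets from which it was assembled, with 6-digit numbers from the older pair of arrays and 7-digit numbers added for this one. Among unnamed probe sets 3.64% of 8690 with 6 digits and 1.99% of 3020 with 7 digits were past 2-fold lower at 6 h, against 0.895% and 1.2% with 1 symbol. Within the 6-digit numbers the share climbed with the number. It was 0.835% (5 of 599) between 200000 and 209999, 1.38% between 210000 and 219999, 3.13% between 230000 and 234999, 4.96% (91 of 1833) between 235000 and 239999 and 5.05% (133 of 2635) between 240000 and 249999.

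The 1-symbol share also climbed with the number, at a lower height. It was 0.484% between 200000 and 209999, 1.88% between 235000 and 239999 and 1.96% between 240000 and 249999. In 9 of 10 number ranges with 100 or more members the unnamed share was above the 1-symbol share, the exception being 1570000 to 1579999 with 0 of 182 against 4 of 176. When the 1-symbol shares were weighted to the number ranges of the unnamed class, 1.32% of 1-symbol probe sets would be lower at 6 h. That is above their own 0.937% and below the 3.21% of the members. At 12 h the same weighting gave 1.52% lower, against 2.16% unnamed, and 1.24% higher, against 0.648%.

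**Figure D5:**
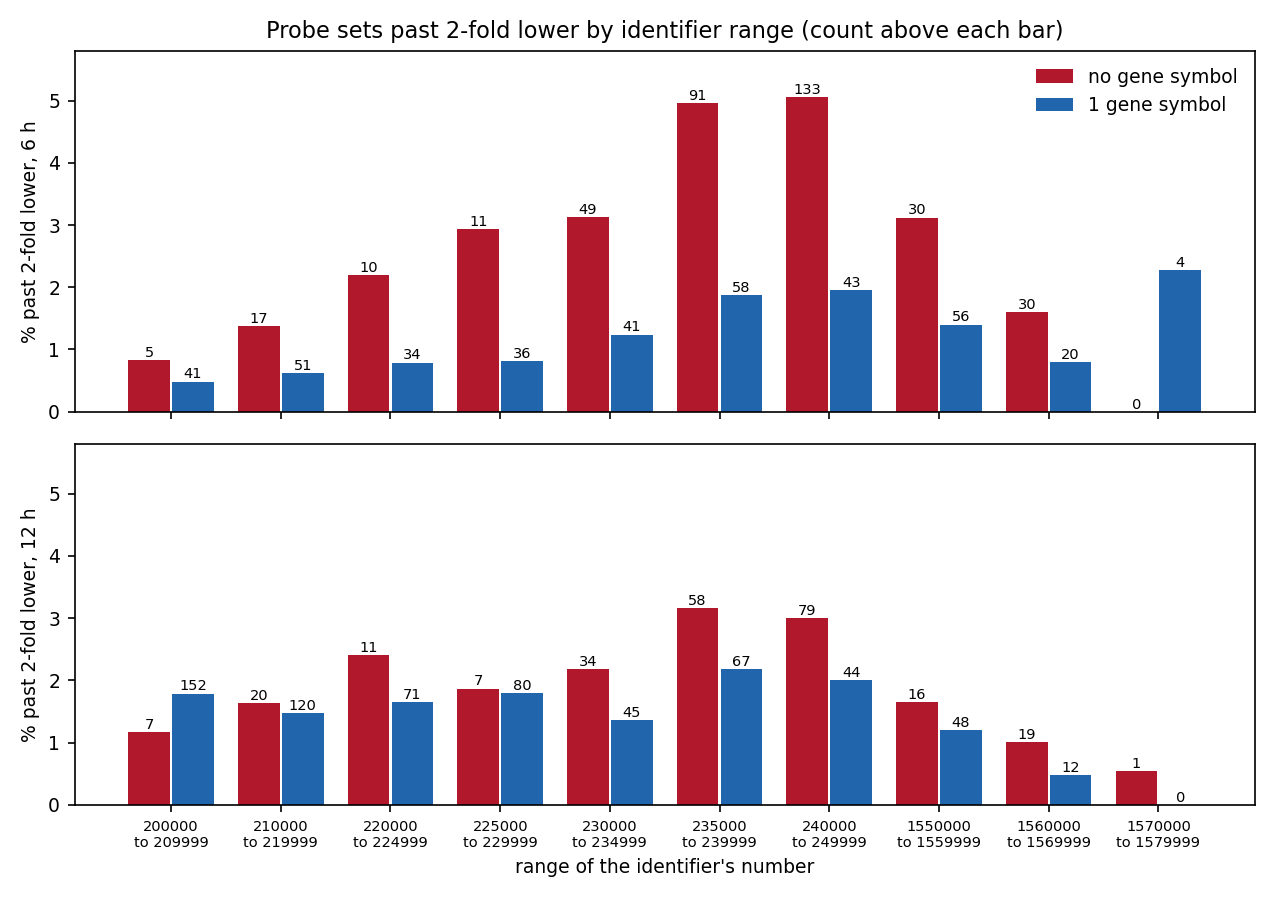
Percent of probe sets past 2-fold lower at 6 h (top) and 12 h (bottom) against 0 h (y axis) by range of the identifier's number (x axis), red for unnamed and blue for 1-symbol probe sets, with the number of probe sets above each bar. At 6 h the red bar is the higher one in 9 of the 10 ranges and is tallest from 240000 to 249999 (5.05%); the 11 unnamed probe sets with 5 digits or fewer are not drawn.

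By ending, the lower share at 6 h was 3.41% for the 9788 unnamed probe sets in _at, 2.98% for 302 in _a_at, 2.52% for 833 in _x_at and 1.51% for 796 in _s_at. With 1 symbol these shares were 0.98%, 1.24%, 0.6% and 0.885%. The order of the classes was the same for every one of these endings, and the designs meant for 1 transcript carried the largest unnamed share. The _x_at members had the lowest medians of the 4 endings, -0.070 at 6 h and -0.10 at 12 h.

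Members may read the same transcript, which would make them fewer separate readings. Neighbouring identifier numbers give a partial view of this. Among 3071 neighbouring 6-digit pairs that carry 1 same symbol, r between both 6 h differences was 0.32, and among 24617 pairs with different symbols it was 0.017. Among 3526 pairs of unnamed neighbours it was 0.076, and 7 of the 245 pairs with 1 or more members lower at 6 h had both lower. The same count was 5 of 49 for 6-digit pairs of 1 same symbol and 4 of 396 for those with different symbols. For 7-digit numbers r was 0.22 over 1019 unnamed pairs, 0.33 over 763 pairs of 1 symbol and 0.050 over 2446 pairs of different symbols. These correlations run across probe sets that share arrays and describe them only. They do not show how many transcripts the members stand for.

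Whether a low 6 h value was shared by a whole gene could be asked of named genes only. Of the 385 1-symbol probe sets lower at 6 h, 354 belonged to genes with further probe sets, and for 82 of these (23.2%) another one of the gene was also past 2-fold lower. The median of the genes' other probe sets was -0.13 (quartiles -0.44 and 0.031). On the higher side at 6 h this agreement was 14 of 88 (15.9%), with a median of 0.14. At 12 h it was 209 of 541 (38.6%) on the lower side and 200 of 536 (37.3%) on the higher, with medians of -0.41 and 0.40. The bases differ by time. Of all 1-symbol probe sets, 0.937% were lower and 0.246% higher at 6 h, and 1.57% and 1.56% at 12 h. With no symbol in the annotation used here, agreement within a gene was not asked of the members.

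To place the 10 members of widest range beside known genes, the 1-symbol probe sets with the smallest Euclidean distance over the 4 values were listed. Likeness over 4 arrays says nothing about identity, and this listing was chosen after the values had been seen. The closest to 230748_at was 230494_at of SLC20A1, a phosphate transporter, at a distance of 0.40, with a 6 h difference of -2.78. The other probe set of SLC20A1, 201920_at, was at -0.56. The next were a probe set of GPCPD1, a glycerophosphocholine phosphodiesterase, at a distance of 0.50 and one of TMED10, a cargo receptor of the early secretory pathway, at 0.64. The closest to 244112_x_at were 1 of 3 probe sets of GPCPD1 (0.43) and 1 of 12 of MALAT1, an abundant nuclear noncoding RNA (0.43).

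The member 210524_x_at lay closest to a probe set of MT1F (distance 0.39) and next to the one of MT1HL1 (0.58). These are metallothioneins, small metal-binding proteins encoded by closely related genes. The MT1F probe set 213629_x_at was at -0.62, 0.62, 0.73 and -2.75, higher at 2 h and 6 h and lowest at 12 h, the same order of arrays as in 210524_x_at. The second MT1F probe set, 217165_x_at, was instead higher at 2 h (0.88) than at 6 h (0.64), as was that of MT1HL1 (0.73 and 0.54). All of these probe sets have the ending _x_at, so they may read some of the same transcripts.

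For 221419_s_at the closest was 211074_at of FOLR1, a folate receptor, at a distance of 0.33, with 1.17 for the next. Its values were -2.03, -0.41, 0.45 and 0.41, so it too was low on the 0 h array alone. The second FOLR1 probe set, 204437_s_at, was at -0.060 at 0 h and 0.48 above that at 6 h. Of the 2 probe sets of this gene, then, 1 showed the low 0 h value.

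Among the high members at 12 h, 241721_at lay closest to 228390_at of RAB30, a Golgi GTPase (0.35). Of the other RAB30 probe sets, 229072_at was 2.18 above 0 h at 12 h, whereas 206530_at, 227842_at and 228003_at were at 0.32, -0.24 and -0.37. Those closest to 205239_at were probe sets of the cytokine IL11 (0.14), HECA (0.20) and GALNT3, an O-glycosylation enzyme (0.21). The second IL11 probe set, 206926_s_at, was at 0.053 at 12 h, against 2.22 for the close one.

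Among the low members at 12 h, 243543_at lay closest to LOX, the lysyl oxidase that cross-links collagen (0.16), SLC2A3, a glucose transporter (0.21), and RHEX (0.21). Of the other LOX probe sets, 215446_s_at was at -2.01 at 12 h and 213640_s_at at -0.099. The closest to 236518_at were TMEM141 (0.18), VASH2 (0.31) and HELLS, a chromatin remodelling ATPase (0.32). The closest to 222180_at were NAA25, a subunit of an N-terminal acetyltransferase (0.32), CPEB4, a regulator of translation through the 3′ end of messages (0.36), and FARSB, a subunit of phenylalanyl-tRNA synthetase (0.37). The other NAA25 probe sets were at 0.089 and -0.26 at 6 h, against -2.44 for the close one.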

How the data were processed

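Each of 4 arrays is 1 sample at 0, 2, 6 or 12 h. The deposited table holds log2 values for 54675 probe sets on 4 arrays, made by the authors with RMA per the submitters' processing notes (no version given), which corrects background, equalises the arrays' distributions and summarises probes. In the deposited log2 values each probe set's median over the arrays is 0 within 1e-06; who centred them, the log base and the direction are not given in the sources used here, and base 2 was taken because RMA uses it. Of the probe sets, 41091 had 1 symbol, 1801 several, 11721 none in the platform annotation and 62 were controls. Gene classes came from RefSeq (GRCh38.p14 names only).

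Log2 differences between arrays were counted at or past 2-fold, with Python 3.11.15, pandas 2.3.3 and numpy 2.4.6; there is no test. The number of arrays limits precision. Named members were, at each time, the 10 highest and 10 lowest past 2-fold (at least 3 each way), and the 10 of widest range; the part of the rule that needs accessions was not applied. The members, lists and comparisons were chosen with earlier results of these data known. The counting was tested on simulated data. Alternatives were array centring, spike-in centring, leaving out _x_at and _s_at, another reference and thresholds of 1.5-fold and 3-fold. Number ranges, endings and digits were chosen after seeing the data. The named probe sets closest to one of the 10 members of widest range are not reported here.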

Additional observations from a re-analysis of the deposited data

How the results depend on the processing

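Centring each array on its own median moved 1 of 16 summary values, the 6 h median of unnamed probe sets (-0.032). Spike-in centring moved 6 of 16: the medians to -0.021, -0.096 and 0.30 at 2, 6 and 12 h, the higher count to 9 at 6 h and 242 at 12 h, and the lower count at 12 h to 81. Without _x_at and _s_at identifiers, or with _at alone (chosen after seeing the data), the higher count at 2 h was 0 and the other 15 values stayed near the main ones; with 6-digit numbers alone (also chosen afterwards) the 2 h median was 0.0018. With the mean of the other 3 arrays as reference, higher counts were 58 at 2 h and 4 at 6 h, lower counts 6, 144 and 75, and medians 0.014, -0.0024 and -0.041; the higher ratio of unnamed to 1-symbol shares was 0.312 at 6 h, and the lower ratio at 12 h turned to 0.711. At 1.5-fold the counts were 66 higher and 95 lower at 2 h, 143 and 1058 at 6 h, and 307 and 939 at 12 h. At 3-fold they were 2 and 51 at 6 h, where the higher ratio was 0.876, and 18 and 40 at 12 h. The ratio for the lower side at 6 h stayed within 1.5 times 3.42 in all of these. Of 41 named differences, 1 under spike-in centring and 10 under the other reference ended below 2-fold, and none changed sign.

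Leaving out members whose accession matches a gene was not run, since no member has an accession here. No paired analysis was possible because each time has 1 array. The values hold no level, so signal over background is unknown.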
